A study of Mus musculus with 12 samples.

Results

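Gene expression was compared between mouse palate cells with and without knockdown of *Srsf3*, before any growth factor was added. The comparison rests on 6 of the 12 RNA-seq samples of the series, 3 labelled shSrsf3 and 3 labelled scramble, all of them -PDGF-AA, and it was made over 15037 of the 51490 genes in the table, those that passed a low-count filter. The members are thus set by sample label and count filter. The cells are iMEPM cells, an immortalized line of mesenchyme from the embryonic mouse palate that the study's methods trace to a male embryo lacking *Cdkn2a*, a cell cycle inhibitor gene. The scramble cells carry an integrated lentivirus with a control shRNA, and the shSrsf3 cells carry one with an shRNA directed at the 3' UTR of *Srsf3*. Both lines were grown in medium with 10% fetal bovine serum, kept in 4 ug/mL puromycin for 10 days, sorted for high GFP and used between passages 9 and 20. The methods describe serum starvation before stimulation with PDGF-AA. Their RNA-seq section does not say whether the unstimulated cultures were starved. Each shRNA was represented by 1 line, so differences between lines and effects of the knockdown cannot be told apart in these samples. The other 6 samples of the series are the same lines after 1 hr in 10 ng/mL PDGF-AA, and they were used for the common estimate of the spread and for side-by-side values.

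Srsf3 is the smallest member of the serine/arginine-rich (SR) protein family, RNA-binding proteins that promote exon inclusion and also act in mRNA export and 3' end formation. Palatal mesenchyme is largely neural crest-derived, and its outgrowth and elevation depend on Wnt, BMP, FGF, Hedgehog and retinoic acid signals, on patterning transcription factors and on a matrix of collagens and hyaluronan. The gene families below follow that order, from secreted signals and receptors to transcription factors, matrix, adhesion and housekeeping functions.

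The library totals of the 6 samples were between 37070136 and 76123359 expected counts. Levels are given as CPM, in which each count is divided by the effective size of its library, with the SD over 3 replicates. CPM does not correct for gene length, so it is compared between samples of 1 gene and not between genes. A log2 fold change (log2FC) is shSrsf3 over scramble. Its SE was derived as the absolute log2FC divided by the square root of the F statistic of the test named next. A gene was called differentially expressed (DE) where edgeR's quasi-likelihood test gave a p of at most 0.05 after Benjamini-Hochberg adjustment and the fold was at least 2. With 3 samples against 3, an exact permutation test of a single gene cannot give a p below 0.1, so the calls rest on the spread shared across genes (a biological coefficient of variation of 0.0701).

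*Srsf3* itself (chr17:29251321-29262347, GRCm39) measured 207, 199 and 212 CPM in the scramble samples and 162, 164 and 161 CPM in the shSrsf3 samples. The groups did not overlap, and the log2FC was -0.34 with an SE of 0.0379 (edgeR adjusted p = 7.95e-06), a 1.27-fold lower level that lies under the 2-fold minimum for a DE call. Of the 31-base words in *Srsf3* transcripts, 12.4% also occur in other genes. The pseudogene entry *Srsf3-ps* was itself DE, and 66.2% of its 31-base words occur in other genes. Reads could be divided between such entries, and the values of *Srsf3-ps* are not reported here. By western blot, the paper reported less Srsf3 protein in the shSrsf3 line, and protein cannot be read from these RNA data. Scramble replicates 1 and 2 stood apart. The second principal component of all 12 samples (10.6% of the variance) separated them (27.4 and 21) from scramble replicate 3 (-22.3), while the 3 shSrsf3 samples lay between -1.39 and 1.92. The first component (43.9%) separated the lines. Both are also among the 3 libraries with a lower mapping rate in the methods, the last being a scramble sample with PDGF-AA, and counts are given without those 3 libraries where this matters. That setting keeps a lone unstimulated scramble sample and takes its spread from the remaining groups.

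Of 8 genes tested on chromosome Y, 4 were DE, all lower in the shSrsf3 line, and these 4 are widely expressed genes of its short arm. *Ddx3y*, an RNA helicase, measured 19.5, 18.8 and 18.9 CPM in scramble and 7.03, 6.92 and 6.87 CPM in shSrsf3 (log2FC -1.45 ± 0.0632 SE, edgeR adjusted p = 1.04e-09). *Kdm5d*, a histone demethylase, fell by 1.71, *Eif2s3y*, a translation initiation factor subunit, by 1.55, and *Uty*, of the same family as the demethylase *Kdm6a*, by 1.38 on the log2 scale. The summed level of the 4 genes ranged from 38.6 to 40.7 CPM in scramble and from 13.2 to 14 CPM in shSrsf3, and the same 4 genes were lower in the shSrsf3 line after PDGF-AA. *Xist*, the RNA that coats an inactive X chromosome, was present in all 6 samples, at 413, 393 and 444 CPM in scramble and 489, 429 and 594 CPM in shSrsf3, and these ranges overlapped (log2FC 0.27, edgeR adjusted p = 0.0320). Counts of *Xist* at this level beside those of chromosome Y genes do not match the description of the line as male, and the identity of the lines was not tested. The median log2FC of the autosomes and of chromosome X lay between -0.06 and 0.07. Whether this difference between the lines has a part in the results below was not tested. *Cdkn2a*, which the source embryo is described as lacking, was counted at 3.22 and 3.29 CPM, and counts of a gene do not show whether a deleted exon is present.

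**Figure D1:**
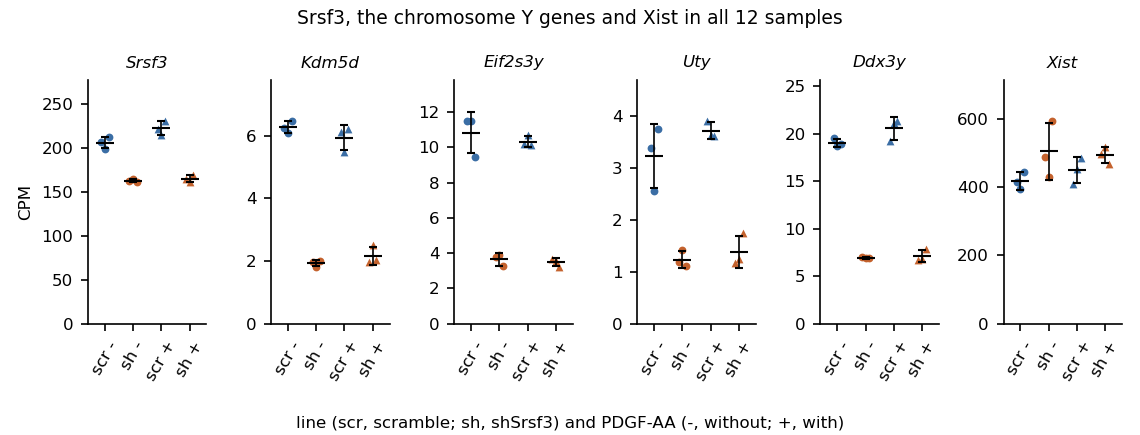
CPM (linear axis from 0) of *Srsf3*, 4 chromosome Y genes and *Xist* in the 12 samples; scr is scramble, sh is shSrsf3, circles are -PDGF-AA and triangles +PDGF-AA, and bars are the mean and SD of 3 replicates. *Srsf3* and the chromosome Y genes are lower in all shSrsf3 samples with and without ligand, whereas the *Xist* ranges of the unstimulated groups overlap.

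Without ligand, the shSrsf3 cells had less of the IGF-binding proteins *Igfbp2* and *Igfbp5* and of the growth factor gene *Igf2*. They had less of the R-spondin receptor *Lgr5*, the Wnt coreceptor *Lrp5* and the Wnt feedback gene *Axin2*. The shSrsf3 cells also had less of the patterning factors *Sim2*, *Tfap2a* and *Alx4* and of many interferon-stimulated genes. They had more of the type IV collagen chains *Col4a5* and *Col4a6*, the integrin *Itga8*, the proteoglycan *Dcn*, the nuclear receptor *Nr4a1* and the phosphatases *Dusp5* and *Ptprb*. Of the 15037 genes tested, 864 were DE (5.75%), 449 higher (2.99%) and 415 lower (2.76%) in shSrsf3. At the adjusted p alone, 6899 genes passed (45.9%), 3333 higher (22.2%) and 3566 lower (23.7%), and 6035 of these differed by less than 2-fold. The median absolute log2FC of the genes that passed was 0.34, and the median log2FC of all genes tested was -0.02. At 4-fold or more, 88 DE genes were higher and 78 lower. A mean below 50 counts over the 6 samples was found for 441 of the DE genes. All 864 together made up 0.728% of the counts in scramble and 0.64% in shSrsf3. Of the DE genes, 416 had a mean of at least 50 counts and no overlap between groups, 212 of them higher and 204 lower. For comparison, 53.3% of all genes tested had no overlap between the groups. Without the 3 libraries of lower mapping rate, 761 genes were DE, of which 591 were shared with the 864. Protein-coding genes made up 735 of the DE genes (5.7% of those tested), and long non-coding RNAs made up 67 (7.23%). Counts of the gene lists below are to be read against all genes tested, of which 5.75% were DE. At the adjusted p, 22.2% of all genes were higher and 23.7% lower.

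**Figure D2:**
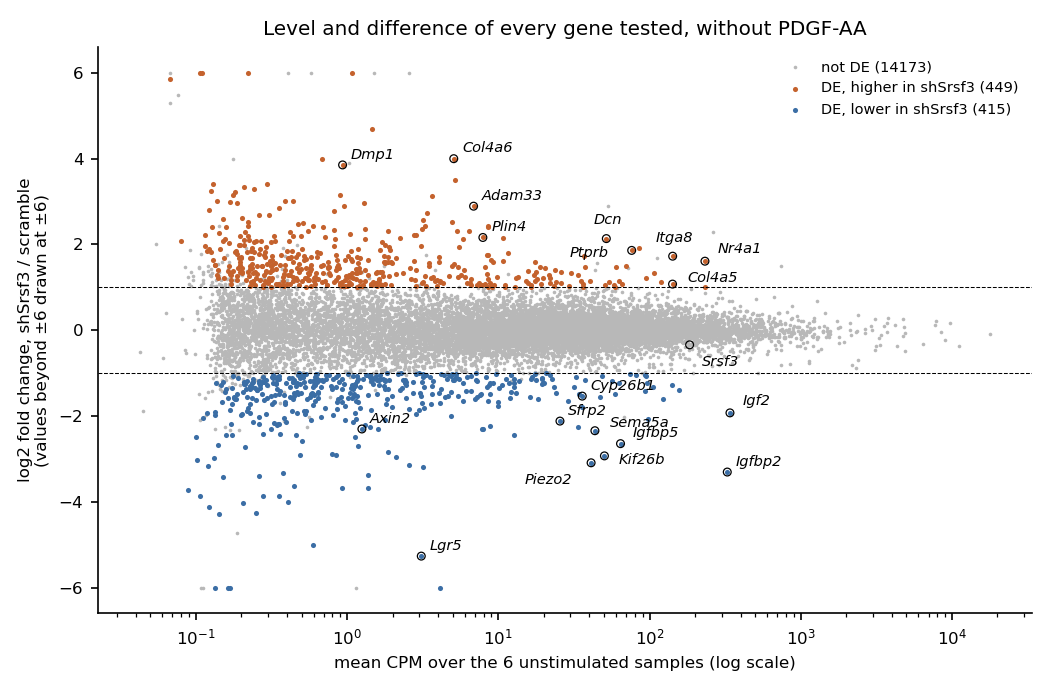
Log2FC of each of the 15037 genes tested (vertical axis, values beyond 6 in either direction drawn at 6) against the mean CPM over the 6 unstimulated samples (log scale), with DE genes in colour, dashed lines at 2-fold and circles around labelled genes. DE genes are spread over low and medium levels, with *Igfbp2* and *Igf2* far below the other genes of their level, and *Srsf3* lies within the 2-fold lines.

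*Lgr5*, a receptor for R-spondins that strengthens Wnt signaling, had the largest decrease among DE genes with at least 50 counts and no overlap. It measured 5.82, 6.16 and 6.13 CPM in scramble and 0.155, 0.182 and 0.107 CPM in shSrsf3, which is 38.5-fold lower (log2FC -5.27 ± 0.176 SE, edgeR adjusted p = 1.07e-10). No shSrsf3 sample came near the scramble range. *Aldh1a2*, which makes retinoic acid, was next, at 2.54 ± 0.00797 CPM in scramble and 0.185 ± 0.0863 CPM in shSrsf3 (12.8-fold lower). The other genes of this group were *Igfbp2*, the matrix protease *Adamts16*, the stretch-activated channel *Piezo2*, the chemokine *Cxcl14*, the kinesin *Kif26b*, the transcription factor *Erg*, the pseudogene *Gm18787* and the protease inhibitor *Serpina3g*, whose decreases ran from 7.21-fold to 10.4-fold. Of the 31-base words of *Serpina3g*, 44.8% also occur in other genes, so its counts could be split with its paralogs.

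In the other direction, *Col4a6*, a chain of the type IV collagen network of basement membranes, measured 0.468, 0.69 and 0.613 CPM in scramble and 9.89, 9.08 and 9.69 CPM in shSrsf3 (16.0-fold higher, log2FC 4.00 ± 0.122 SE, edgeR adjusted p = 4.61e-11). *Dmp1*, an acidic matrix protein of mineralized tissue, rose 14.4-fold from 0.114 ± 0.0615 to 1.75 ± 0.279 CPM. *Adam33*, a membrane metalloprotease, rose 7.41-fold, the vesicle GTPase *Rab3b* rose 8.79-fold, the drug efflux pump *Abcb1a* rose 7.79-fold, the cytokine receptor chain *Il2rb* rose 7.48-fold and the keratinocyte protein *Kprp* rose 8.88-fold, each with no overlap between groups. The 3 remaining genes of this group, *Gm5884*, *Pagr1a* and *Gm9843*, share from 76.1% to 100% of their 31-base words with other genes and are uncertain. *Gm5884* was not counted in scramble. Against a floor of 3 counts per library, shSrsf3 held at least 32.8-fold more, and with PDGF-AA it did not pass the test. *Pagr1a* and *Gm9843* varied within the shSrsf3 group from 0.583 to 5.76 CPM and from 4.35 to 17.4 CPM, and lost the adjusted p without single libraries: *Pagr1a* without shSrsf3 replicate 2 (log2FC 3.5), and *Gm9843* without scramble replicate 1 or 2 or shSrsf3 replicate 2 or 3 (2.81 to 3.72). The pseudogene *Gm10052* was the reverse case, with 22.8, 1.98 and 0 CPM in scramble and no count in shSrsf3, and its call was lost without scramble replicate 1 or any single shSrsf3 replicate (edgeR adjusted p = 0.0505 to 0.103). With PDGF-AA, *Gm10052* went the other way, with no count in scramble and a mean of 4.84 CPM in shSrsf3 (edgeR adjusted p = 0.0439).

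By the change in mean CPM, the largest decreases among DE genes were those of *Igfbp2*, *Igf2*, the filamin regulator *Rflnb* (228 ± 12.7 to 86.2 ± 4.89 CPM), the semaphorin and VEGF coreceptor *Nrp2* (184 ± 3.89 to 60.9 ± 1.1 CPM), the secreted glutathione peroxidase *Gpx3* (158 ± 24.5 to 37.6 ± 2.33 CPM), *Wdr89*, *Igfbp5*, *Ndrg1*, the calcium pump *Atp2b4* (136 ± 2.62 to 51.3 ± 2.88 CPM) and *Lrp5*. *Wdr89* rests on scramble replicates 1 and 2: its values were 225, 292 and 76.8 CPM in scramble and 91.5, 80.3 and 73.5 CPM in shSrsf3, and the groups overlapped. Its call was lost without scramble replicate 1 or 2 or shSrsf3 replicate 2 or 3 (log2FC -1.26 to -0.87), and its log2FC was 0.09 without the 3 libraries of lower mapping rate. The largest increases were those of *Nr4a1*, *Itga8*, *Col4a5*, the actin adaptor *Sorbs2* (35.3 ± 1.21 to 134 ± 3.05 CPM), the elastic fibre protein *Emilin2* (60.9 ± 1.31 to 152 ± 5.67 CPM), the NG2 proteoglycan *Cspg4*, *Ptprb* (32.9 ± 2.62 to 120 ± 12.6 CPM), the sphingosine-1-phosphate receptor *S1pr3* (56.4 ± 2.1 to 132 ± 1.73 CPM) and the vasodilator peptide *Adm* (36.9 ± 3.92 to 104 ± 3.26 CPM), together with the pseudogene *Tpt1-ps3*. All of the 31-base words of *Tpt1-ps3* occur elsewhere, and its scramble replicate 3 (283 CPM) lay close to the shSrsf3 samples (287, 333 and 308 CPM) and far from scramble replicates 1 and 2 (91.8 and 83.6 CPM). The call of *Tpt1-ps3* was lost without any 1 of the samples other than scramble replicate 3 (log2FC 0.72 to 1.06).

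**Figure D3:**
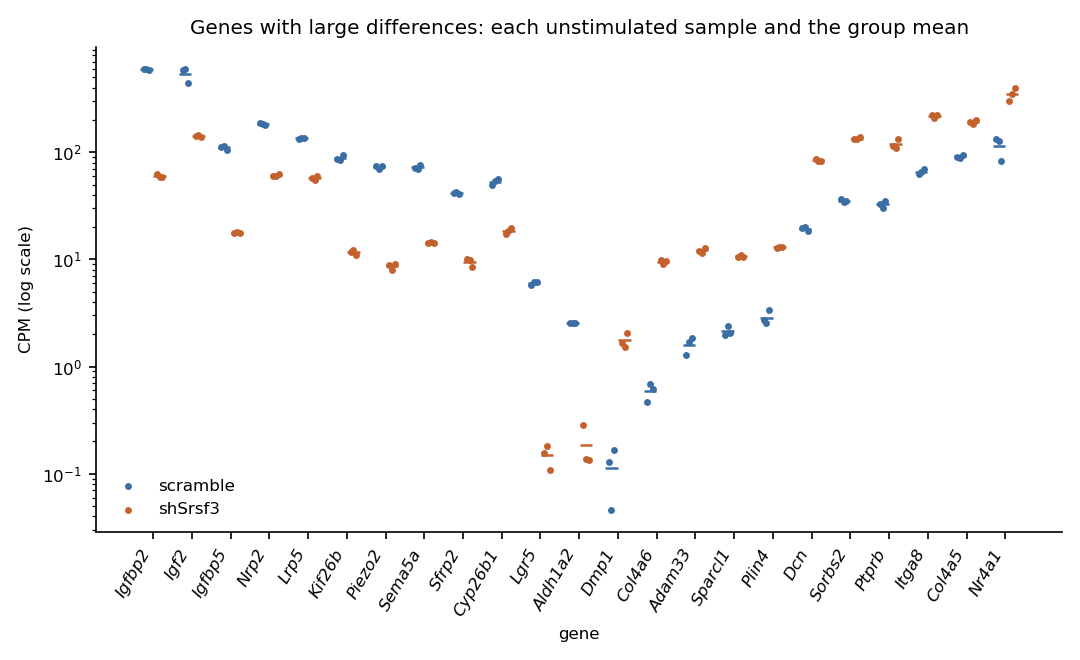
CPM (log scale) of 23 DE genes in each of the 3 scramble (blue) and 3 shSrsf3 (orange) unstimulated samples, with a bar at each group mean. The genes were chosen among DE genes with no overlap between groups, so the gap between groups follows from that choice. In scramble, replicates of *Igfbp2* lie close together (585 to 598 CPM) and those of *Dmp1* further apart (0.13, 0.046 and 0.166 CPM). The spread does not follow level alone: scramble samples ran from 440 to 595 CPM for *Igf2* and from 5.82 to 6.16 CPM for *Lgr5*.

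The insulin-like growth factor (IGF) system consists of the ligands, their receptors and binding proteins that hold the ligands outside the cell or release them at its surface. Of 18 members tested, 11 were lower and 4 higher at the adjusted p, and 3 were DE, all lower, with a median log2FC of -0.33 (-0.02 over all genes). *Igfbp2* measured 597, 598 and 585 CPM in scramble and 63.2, 58.3 and 58.4 CPM in shSrsf3 (9.89-fold lower, log2FC -3.31 ± 0.0416 SE, edgeR adjusted p = 4.06e-15). *Igfbp5*, its neighbour on chromosome 1 (chr1:72897091-72914043, against chr1:72863606-72891634 for *Igfbp2*), measured 112, 115 and 106 CPM against 17.6, 17.8 and 17.7 CPM (6.25-fold lower). Neither gene had any overlap between groups. *Igf2*, the fetal growth factor, measured 581, 595 and 440 CPM against 142, 144 and 139 CPM (3.8-fold lower). Scramble replicate 3 was the lowest of its group for *Igf2*, and 57.2% of the 31-base words of *Igf2* are shared with another annotated gene. The receptor *Igf1r* fell by 0.46 on the log2 scale, from 329 ± 8.41 to 239 ± 16.4 CPM, without reaching 2-fold. Among the mRNA-binding proteins named for *Igf2*, *Igf2bp3* rose by 0.47, and *Igf2bp1* (0.03) and *Igf2bp2* (-0.13) did not pass the test.

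Canonical Wnt signaling runs from secreted ligands through Frizzled receptors and the coreceptors Lrp5 and Lrp6 to beta-catenin, and cells that receive it switch on feedback inhibitors such as Axin2. Of 11 Wnt ligands tested, 5 were lower and 2 higher at the adjusted p, and 4 were DE. *Wnt16* measured 27.2, 26.8 and 29.2 CPM in scramble and 12.1, 11.8 and 11.6 CPM in shSrsf3 (2.34-fold lower), *Wnt5b* fell 3.31-fold from 5.5 ± 1.0 to 1.68 ± 0.247 CPM, and *Wnt4*, with few counts, fell by 2.10 on the log2 scale. *Wnt2* moved the other way, from 0.364 ± 0.112 to 1.73 ± 0.152 CPM (4.74-fold higher). *Wnt5a*, the ligand best known from palate mesenchyme, did not pass the test, at 58.4 ± 1.58 and 59.9 ± 1.51 CPM.

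Of 18 Wnt receptors and coreceptors tested, 8 were lower and 3 higher, and the 4 DE genes were *Lgr5*, *Lrp5* and *Fzd3*, all lower, and *Lgr6*, which was higher at a level below 0.4 CPM. *Lrp5* measured 134, 137 and 135 CPM in scramble and 57.6, 54.8 and 59.9 CPM in shSrsf3 (2.35-fold lower, log2FC -1.23 ± 0.0403 SE, edgeR adjusted p = 8.63e-11), with no overlap. *Fzd3* fell 2.12-fold. Without the 3 libraries of lower mapping rate, *Lgr5*, *Lrp5* and *Fzd3* kept their calls.

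The secreted and membrane regulators of Wnt had 6 DE genes of 16 tested, all lower, and those 6 were also DE after PDGF-AA. Without the 3 libraries of lower mapping rate, 4 members were DE and lower and 1 was DE and higher. *Sfrp2*, a secreted Wnt binder, measured 41.9, 42.3 and 40.7 CPM in scramble and 10.0, 9.95 and 8.51 CPM in shSrsf3 (4.34-fold lower). *Apcdd1*, a membrane inhibitor, fell 2.16-fold, and its log2FC was -0.91 without scramble replicate 1 and -0.79 without the 3 libraries, under the 2-fold minimum. The other 4 DE members, *Sostdc1*, *Frzb*, *Rnf43* and *Notum*, had at most 28 counts in any sample. *Sfrp1* fell by 0.80 on the log2 scale, from 364 ± 30.0 to 209 ± 2.86 CPM. *Dkk2* (0.01) and *Dkk3* (0.03) did not pass the test. Receptors that pass the Wnt signal on and inhibitors that block it were thus both among the genes that fell.

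Inside the cell, 10 of 16 Wnt components and targets were lower and 2 higher, and 4 were DE, all lower. *Axin2* measured 1.95, 2.25 and 2.04 CPM in scramble and 0.363, 0.456 and 0.456 CPM in shSrsf3 (4.93-fold lower, log2FC -2.30 ± 0.207 SE, edgeR adjusted p = 1.05e-06). The Dishevelled binder *Nkd1* fell 2.76-fold and *Dact1* fell 2.03-fold, and *Dact1* dropped below 2-fold without scramble replicate 3 (log2FC -0.93) or shSrsf3 replicate 1 (-0.95). *Dact2* was DE at no more than 58 counts. *Ctnnb1*, which encodes beta-catenin, fell by 0.18 on the log2 scale (586 ± 22.4 to 516 ± 4.83 CPM). In the planar polarity list, 7 of 18 members were lower, 3 higher and 1 DE. That gene was *Kif26b*, a kinesin degraded in response to Wnt5a, at 86.5, 85.4 and 95.1 CPM in scramble and 11.7, 12.2 and 11 CPM in shSrsf3 (7.62-fold lower). The Wnt5a receptor *Ror2* (0.05) did not pass the test, and *Vangl2* fell by 0.26 on the log2 scale.

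**Figure D4:**
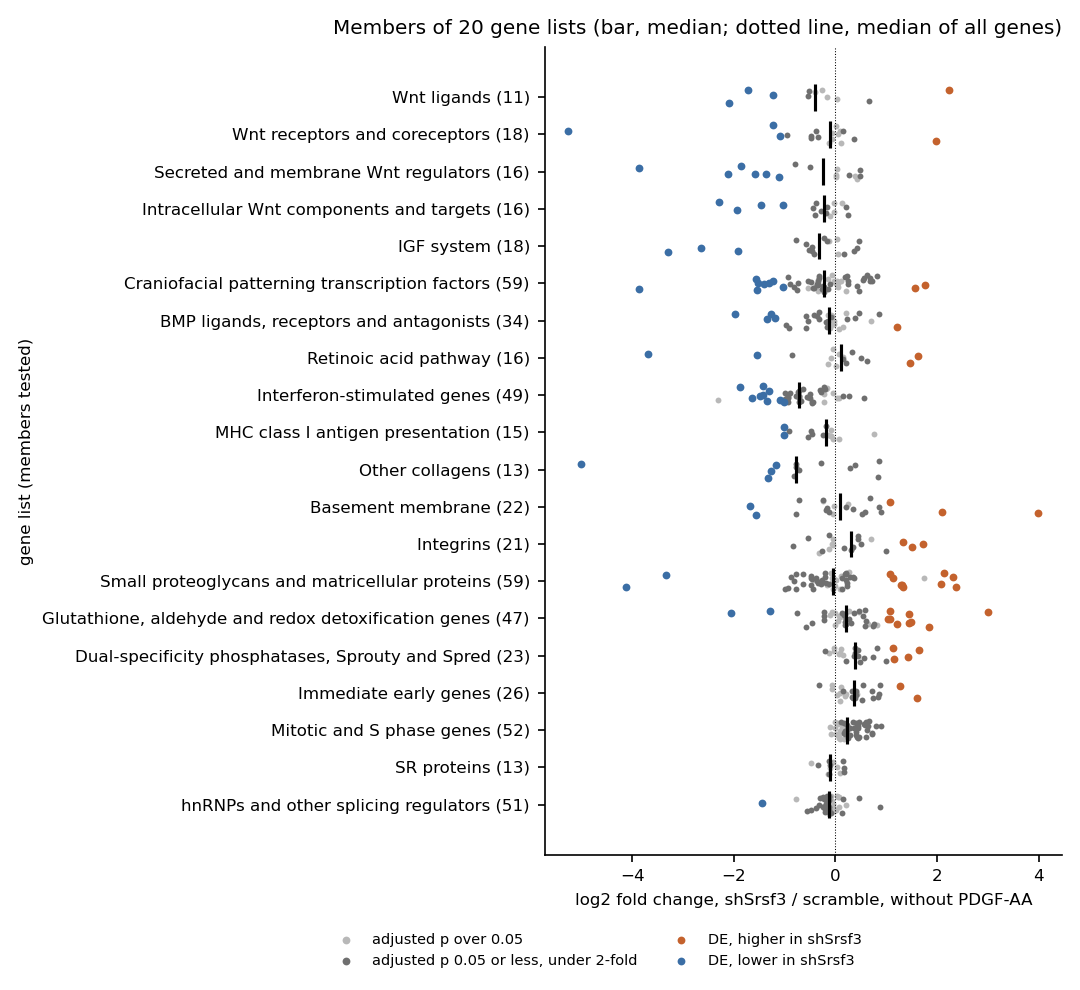
Log2FC of the tested members of 20 gene lists, 1 point per gene, with a bar at each list's median and a dotted line at the median of all genes; colours mark DE genes and the number tested is beside each name. The Wnt and IGF lists have their DE members mostly on the left, most of the interferon list lies left of the dotted line, and the mitotic and dual-specificity phosphatase lists lie to its right.

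Retinoic acid is made by aldehyde dehydrogenases and broken down by Cyp26 enzymes. Of 16 genes tested, 4 were DE, on both sides of this balance: *Aldh1a2* fell 12.8-fold, *Cyp26b1* fell 2.9-fold (50.0, 53.8 and 56.2 CPM against 17.4, 18.4 and 19.5 CPM), *Aldh1a1* rose 3.06-fold from 0.537 ± 0.063 to 1.63 ± 0.182 CPM, and the retinol dehydrogenase *Dhrs9* rose 2.76-fold from 19.8 ± 0.608 to 54.8 ± 2.41 CPM. All 4 were also DE after PDGF-AA. The retinoic acid receptor *Rarg* rose by 0.15 on the log2 scale, and *Rara* (-0.15) and *Rxra* (0.01) did not pass the test. The binding protein *Crabp1* rose by 0.32.

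Among 34 BMP ligands, receptors and antagonists, 17 were lower and 5 higher at the adjusted p, and 5 were DE. The ligand *Bmp6* fell 2.29-fold (10.2 ± 0.745 to 4.39 ± 0.443 CPM), the antagonist *Nog* fell 2.55-fold, the activin receptor *Acvr2b* fell 2.4-fold and *Gdf10* fell by 1.98 on the log2 scale, while the antagonist *Chrdl1* rose 2.33-fold from 11.9 ± 0.482 to 27.8 ± 0.47 CPM. *Bmp4* did not pass the test (66.1 ± 4.28 and 63.6 ± 1.53 CPM). In the TGF-beta and activin list, 1 of 23 members was DE, the activin subunit *Inhbb*, which fell 3.02-fold. In the FGF list, 5 of 15 were DE. *Fgf10*, a mesenchymal ligand required for palate growth, measured 2.52, 2.34 and 2.06 CPM in scramble and 8.99, 9.85 and 7.36 CPM in shSrsf3 (3.84-fold higher), and *Fgf5* rose 2.71-fold. *Fgf9*, *Fgf11* and *Fgf13* were lower with at most 31 counts in any sample. The receptors *Fgfr1* and *Fgfr2* fell by 0.23 and 0.56 on the log2 scale.

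In the Hedgehog list, the antagonist *Hhip* was the 1 DE gene of 10 (2.29-fold higher), while 4 members were lower and 2 higher at the adjusted p and the summed level was 593 to 620 CPM in scramble and 487 to 510 CPM in shSrsf3. The receptor *Ptch1* rose by 0.38 on the log2 scale and the signal transducer *Smo* fell by 0.13. The coreceptors *Cdon*, *Boc* and *Gas1*, which help cells bind Hedgehog ligands, fell by 0.69, 0.79 and 0.68 on the log2 scale, each with no overlap between groups. In the Notch list, 11 of 17 members were lower and 4 higher, with *Rfng*, a glycosyltransferase that modifies Notch, 2.62-fold higher (8.66 ± 0.218 to 22.6 ± 0.725 CPM). The other 3 DE members, *Hey1* and *Dll1* lower and *Notch4* higher, had at most 50 counts. Of 17 PDGF and VEGF ligands and receptors, 8 were lower and 4 higher, and 4 were DE. *Pdgfb* fell 2.21-fold. *Pdgfra*, the receptor for PDGF-AA, measured 71.5, 69.3 and 81 CPM in scramble and 51.2, 49.4 and 53.4 CPM in shSrsf3, a 1.44-fold lower level with no overlap (log2FC -0.53 ± 0.0562 SE, edgeR adjusted p = 5.33e-06). *Pdgfrb* did not pass the test (360 ± 18.1 and 361 ± 22.6 CPM). *Gfra2*, a neurturin coreceptor, fell 2.06-fold from 110 ± 5.53 to 53.5 ± 1.88 CPM, and the endothelin receptor *Ednra* fell 2.06-fold. The log2FC of *Ednra* was -0.97 without scramble replicate 2 and -0.96 without scramble replicate 3.

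Of 59 craniofacial patterning transcription factors tested, 30 were lower and 15 higher at the adjusted p, and the median log2FC was -0.23. Of 10 DE factors, 8 were lower, and all 10 were also DE after PDGF-AA. *Sim2*, a bHLH-PAS factor expressed in palate mesenchyme, measured 68.9, 72.2 and 70.4 CPM in scramble and 24.8, 23.2 and 24.1 CPM in shSrsf3 (2.93-fold lower, log2FC -1.55 ± 0.0384 SE, edgeR adjusted p = 1.03e-11). *Tfap2a* fell 2.89-fold, *Lhx9* 2.65-fold and *Alx4* 2.35-fold, each with no overlap between groups. *Alx1* fell by 1.03 on the log2 scale, *Gsc* by 1.3 and *Pitx1*, with at most 13 counts, by 3.87. *Shox2*, a homeobox factor required in the anterior palate, rose 3.38-fold (4.55, 3.61 and 3.5 CPM against 13.3, 12.8 and 13.0 CPM), and *Foxp2* rose 2.94-fold. The palate factors *Pax9* (-0.76), *Osr2* (-0.82) and *Msx1* (-0.93) fell on the log2 scale without reaching 2-fold.

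Palatal mesenchyme markers were counted in both lines. Of 20 markers tested, 11 were lower and 5 higher at the adjusted p, 3 were DE (*Sim2* and *Alx4* lower, *Shox2* higher), and the median log2FC was -0.24. Their summed level was 40600 to 42400 CPM in scramble and 36500 to 38800 CPM in shSrsf3. The list includes the general mesenchymal genes *Vim*, *Col1a1*, *Col1a2* and *Col3a1*, and *Col1a2* lies far above *Prrx1* and *Twist1*. The sum is therefore not a check of palatal identity. *Prrx1* fell by 0.25 on the log2 scale (515 ± 19.8 to 432 ± 6.29 CPM), *Twist1* did not pass the test (64 ± 1.89 and 65.4 ± 1.84 CPM), and *Vim* rose by 0.25. Of 39 Hox genes, 20 had no count in any of the 6 samples and 1 passed the count filter. *Sox9* fell by 0.68 on the log2 scale, from 174 ± 15.8 to 108 ± 6.27 CPM.

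Osteoblast genes did not move as a block. Of 22 tested, 11 were lower and 5 higher at the adjusted p. *Dmp1* and *Sp7*, a transcription factor of bone formation (2.4-fold higher, 0.577 ± 0.109 to 1.4 ± 0.277 CPM), rose, whereas the parathyroid hormone receptor *Pth1r* fell 2.36-fold (12.9 ± 0.32 to 5.49 ± 0.325 CPM) and the phosphatase *Alpl*, with at most 18 counts, fell by 1.33 on the log2 scale. *Runx2* fell by 0.39. In the chondrocyte list, *Cnmd*, an inhibitor of vessel growth in cartilage, fell 4.37-fold, and the 2 other DE members had at most 17 counts.

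Collagens were lower more often than higher. Among 16 fibrillar and fibril-associated collagen genes, 8 were lower and 4 higher, and *Col14a1*, which binds collagen fibrils, was DE (44.4 ± 2.72 to 20.9 ± 1.22 CPM, 2.12-fold lower). *Col1a2* fell by 0.37 on the log2 scale (12500 ± 679 to 9660 ± 317 CPM), while *Col1a1* (-0.08) and *Col3a1* (-0.07) did not pass the test. Among 13 other collagen genes, 9 were lower, 4 higher and 4 DE, with a median log2FC of -0.77. *Col23a1* fell 2.25-fold and *Col28a1* 2.41-fold, and *Col25a1* and *Col17a1* were lower with at most 74 counts. The abundant *Col6a1* (1420 ± 52.4 to 865 ± 24 CPM), *Col6a2* and *Col8a1* fell by 0.71, 0.78 and 0.77 on the log2 scale. *Col6a3* rose by 0.28.

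The basement membrane list held changes in both directions. Of its 22 members, 10 were higher and 8 lower, and *Col4a5* and *Col4a6*, which lie head to head on chromosome X (chrX:140258354-140472231 and chrX:139948399-140257072), were both DE. *Col4a5* measured 90, 89.1 and 95.1 CPM in scramble and 193, 184 and 201 CPM in shSrsf3 (2.11-fold higher). *Col4a1* did not pass the test (1550 ± 31.3 and 1510 ± 76.8 CPM), and *Col4a2* fell by 0.12 on the log2 scale. Of the laminins, *Lama1* fell 3.2-fold and *Lama5* rose by 0.85 on the log2 scale, from 68.4 ± 8.84 to 124 ± 13.5 CPM. *Lama3*, higher, and *Frem1*, lower, were DE with at most 88 counts in any sample.

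Integrins, the receptors for these matrix proteins, were higher in 10 and lower in 4 of 21 genes tested, and the 3 DE genes were all higher. *Itga8* measured 62.8, 65.2 and 70.0 CPM in scramble and 224, 207 and 224 CPM in shSrsf3 (3.31-fold higher, log2FC 1.72 ± 0.0491 SE, edgeR adjusted p = 2.66e-11). *Itgb7* and *Itga2* rose 2.83-fold and 2.5-fold at levels of at most 5.23 CPM. *Itga5* rose by 0.44 on the log2 scale, and *Itgb1* (-0.05) did not pass the test.

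Among 59 small proteoglycans and matricellular proteins, 24 were lower and 20 higher at the adjusted p, but 9 of the 11 DE genes were higher. *Dcn*, which encodes decorin, a regulator of collagen fibrils, measured 19.6, 19.9 and 18.3 CPM in scramble and 86.7, 83.6 and 82.7 CPM in shSrsf3 (4.39-fold higher). *Sparcl1* rose 4.99-fold (2.15 ± 0.234 to 10.7 ± 0.228 CPM), *Tnxb* 5.15-fold, the hyaluronan synthase *Has1* 2.48-fold and *Spon2* 2.45-fold. *Thbs4* and *Tnn*, which were lower, had at most 45 counts in any sample.

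Of 45 matrix proteases and inhibitors tested, 18 were higher and 14 lower (against 22.2% and 23.7% of all genes), and 9 were DE, in both directions. *Adam33* measured 1.27, 1.68 and 1.86 CPM in scramble and 12, 11.6 and 12.8 CPM in shSrsf3, and *Adamts9* rose 3.45-fold. *Adamts16* (3.64, 5.01 and 5.25 CPM against 0.466, 0.547 and 0.591 CPM) fell 8.83-fold, the protease nexin *Serpine2* fell 2.79-fold (50.3 ± 1.7 to 18 ± 0.751 CPM) and *Adam12* fell 2.35-fold. *Timp3* fell by 0.80 on the log2 scale, from 2770 ± 238 to 1590 ± 65.1 CPM. *Mmp2* (0.10) did not pass the test.

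**Figure D5:**
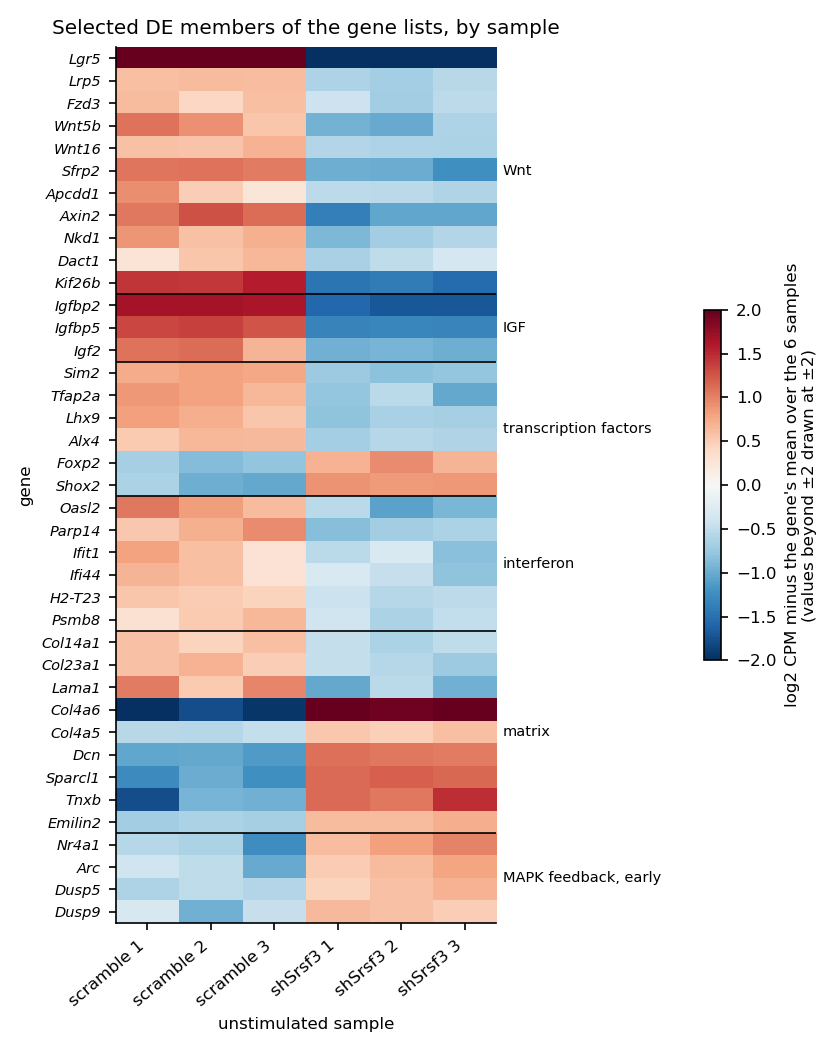
Log2 CPM of selected DE list members (rows, grouped by function) in the 6 unstimulated samples (columns), minus the gene's mean over the 6 samples; red is above and blue below that mean, and values beyond 2 in either direction are drawn at 2. The genes were chosen among DE genes with no overlap between groups, and each changes colour between the scramble and shSrsf3 columns. The interferon rows are paler than those of *Lgr5*, *Igfbp2* and *Col4a6*.

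Semaphorins and their receptors steer growing axons, vessels and migrating neural crest. Of 30 tested, 14 were lower and 11 higher at the adjusted p, and 7 were DE. *Sema5a* measured 71.5, 69.9 and 76.7 CPM in scramble and 14.1, 14.5 and 14.4 CPM in shSrsf3 (5.07-fold lower). The receptor *Plxnc1* fell 4.93-fold (13.2 ± 0.685 to 2.67 ± 0.13 CPM), and the coreceptor *Nrp2* fell 3.02-fold with no overlap (187, 184 and 179 CPM against 59.9, 60.6 and 62.1 CPM). *Sema3e* rose 2.17-fold. The 3 other DE members, *Sema5b* and *Sema4f* lower and *Sema6b* higher, had at most 69 counts. Among other guidance genes, the Slit receptor *Robo2* fell 2.06-fold (16.4 ± 0.51 to 8.0 ± 0.487 CPM) and the ephrin receptor *Epha1* rose 2.1-fold (42.7 ± 1.4 to 89.8 ± 3.05 CPM). The log2FC of *Robo2* was -0.99 without shSrsf3 replicate 1.

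Cadherins mediate calcium-dependent adhesion, and 8 of 27 tested outside the clustered family were DE, 4 in each direction. *Cdh1*, the epithelial cadherin, measured 2.34, 2.39 and 2.35 CPM in scramble and 0.544, 0.531 and 0.376 CPM in shSrsf3 (4.74-fold lower), and *Cdh10* fell 2.74-fold. *Cdh18* rose 2.78-fold and *Pcdh9* rose 2.12-fold (23.4 ± 0.596 to 49.5 ± 0.84 CPM). The mesenchymal cadherins *Cdh2* and *Cdh11* fell by 0.43 and 0.26 on the log2 scale. Of 43 clustered protocadherins tested, 14 were lower and 10 higher, near the 23.7% and 22.2% of all genes, and the 6 DE genes had at most 134 counts in any sample. *Pcdhb5*, with the highest counts of them, fell 2.28-fold, and 17% of its 31-base words occur in other genes. In the immunoglobulin superfamily, *Cadm1* fell 4.01-fold (7.98, 7.52 and 7.76 CPM against 1.94, 1.99 and 1.83 CPM) and its relative *Cadm4* rose 4.68-fold (1.04, 1.03 and 0.961 CPM against 4.69, 4.63 and 4.89 CPM), both with no overlap.

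Interferon-stimulated genes encode antiviral proteins that cells make after interferon binds its receptor, and they are expressed at a low level in resting cells. Of 49 tested, 36 were lower and 3 higher at the adjusted p, against 23.7% and 22.2% of all genes, and the median log2FC was -0.72. Of these, 9 were DE, all lower, and all 9 were also DE after PDGF-AA. *Oasl2* measured 10.3, 8.8 and 7.67 CPM in scramble and 3.42, 2.35 and 2.63 CPM in shSrsf3 (3.13-fold lower, log2FC -1.65 ± 0.187 SE, edgeR adjusted p = 9.55e-06). *Parp14* fell 2.78-fold, *Ifit1* 2.14-fold and *Ifi44* 2.01-fold. The last pair fell under the 2-fold minimum without the 3 libraries of lower mapping rate (log2FC -0.82 and -0.77), and also without scramble replicate 1 (-0.97 and -0.93) or shSrsf3 replicate 3 (-0.99 and -0.9), and *Ifi44* did so without scramble replicate 2 (-0.97). Of the transcription factors that carry the interferon signal, *Irf9* fell by 0.73 and *Stat2* by 0.55 on the log2 scale. *Ifit3* rose by 0.57, against the direction of the list.

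The MHC class I list, part of which interferon also induces, had 8 lower and no higher genes of 15 tested. The non-classical class I gene *H2-T23* (27.7 ± 1.01 to 13.7 ± 0.632 CPM) and the immunoproteasome subunit *Psmb8* fell 2.01-fold and 2.02-fold, close to the 2-fold minimum. *H2-T23* slipped under it without scramble replicate 1 or shSrsf3 replicate 2 (both -0.98) or shSrsf3 replicate 3 (-1.0 after rounding), and *Psmb8* without scramble replicate 3 (-0.91) or shSrsf3 replicate 2 (-0.95). *H2-T23* shares 23.9% of its 31-base words with other genes. *B2m* (-0.10) and *H2-K1* (0.07) did not pass the test. Among 37 cytokines tested, *Cxcl14* fell 7.7-fold (3.97, 3.82 and 3.41 CPM against 0.401, 0.531 and 0.537 CPM) and *Tnfsf18* rose 2.79-fold (10.0 ± 0.776 to 27.9 ± 1.04 CPM). *Il6*, *Il15* and *Ccl20* were higher with at most 78 counts. The complement inhibitor *Serping1* rose 2.02-fold, and its log2FC was 0.96 without scramble replicate 3 and just under 1 without shSrsf3 replicate 1.

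Immediate early genes are switched on within minutes of growth factor signaling, and dual-specificity phosphatases and Sprouty proteins are induced by ERK and damp it. In the unstimulated cells, 16 of 26 immediate early genes were higher and 1 lower (against 22.2% and 23.7% of all genes), with a median log2FC of 0.36. *Nr4a1* measured 133, 128 and 83.8 CPM in scramble and 303, 351 and 396 CPM in shSrsf3 (3.05-fold higher, log2FC 1.61 ± 0.155 SE, edgeR adjusted p = 2.09e-06), and *Arc* measured 14.8, 13.8 and 9.71 CPM against 27.8, 30.4 and 33.9 CPM (2.42-fold higher). *Egr1* rose by 0.87 on the log2 scale, *Fosl1* by 0.72, *Jun* by 0.41 and *Fos* by 0.33. *Nr4a1* and *Arc* were the DE members. Without the 3 libraries of lower mapping rate, scramble replicate 3 is the lone unstimulated control, and it is the lowest scramble sample for both genes. That setting is therefore not used for a count here. *Myc* fell by 0.38, from 195 ± 6.45 to 150 ± 12.1 CPM.

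Of 23 dual-specificity phosphatase, Sprouty and Spred genes, 15 were higher and 1 lower (against the same shares of all genes), with a median log2FC of 0.39. *Dusp5* rose 2.22-fold (24.1, 26 and 24.7 CPM against 50.7, 55.8 and 59.8 CPM) and *Dusp9* 2.19-fold, the latter with a log2FC of 0.97 without scramble replicate 2. *Dusp6*, the cytoplasmic ERK phosphatase, rose by 0.99 on the log2 scale (35.7 ± 1.14 to 71.0 ± 1.62 CPM), just under the minimum, and *Spry2* and *Spry4* rose by 0.44 and 0.48. *Dusp2* and *Dusp27* were DE at no more than 119 counts. *Ptprb*, a receptor tyrosine phosphatase, was the 1 DE gene of 14 in its list.

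Small differences in one direction ran through the cell cycle list. Of 52 mitotic and S phase genes, 34 were higher and none lower at the adjusted p (against 22.2% and 23.7% of all genes), with a median log2FC of 0.23 and no DE gene. *Mki67* measured 126, 113 and 134 CPM in scramble and 179, 172 and 201 CPM in shSrsf3 (log2FC 0.56 ± 0.0731 SE, edgeR adjusted p = 3.19e-05), and *Ccnb1* rose by 0.59. The replication genes *Pcna* (0.04) and *Mcm2* (83.7 ± 3.23 and 83.5 ± 1.42 CPM) did not pass the test, and *Ccnd1* fell by 0.28. The cyclin-dependent kinase inhibitor *Cdkn1c* fell 2.21-fold, and *Cdkn1a* (0.13) did not pass the test. Among 26 histone genes, 13 were lower and 2 higher, led by *H2bc4* (2.21-fold lower) and *H4c9* (2.17-fold lower). Without the 3 libraries of lower mapping rate, 1 histone gene was DE instead of 3, and the log2FC of *H4c9* without scramble replicate 2 was just short of -1. Replication-dependent histone mRNAs lack the poly(A) tail by which these libraries were selected.

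Redox and detoxification genes were higher in 27 and lower in 8 of 47 tested (against 22.2% and 23.7% of all genes). The quinone reductase *Nqo1* measured 10.1, 10.4 and 12.2 CPM in scramble and 29.1, 30.9 and 29.9 CPM in shSrsf3 (2.73-fold higher), *Akr1c14* rose 2.33-fold, *Gstt1* 2.11-fold and *Aldh1l1* 3.58-fold. Their counterpart was *Gpx3*, which fell 4.19-fold (167, 177 and 130 CPM against 39.4, 38.4 and 35.0 CPM). Of 33 cholesterol and fatty acid synthesis genes, 17 were higher and 2 lower, none of them DE. The lipid droplet protein *Plin4* rose 4.47-fold. Hypoxia-responsive genes went both ways, with *Ndrg1* (150 ± 4.5 to 60.1 ± 2.04 CPM), *Bnip3* and *Egln3* falling 2.49-fold, 3.18-fold and 2.27-fold and *Adm* rising 2.82-fold. *Gapdh* and *Hk2* did not pass the test.

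Ion channels and nucleotide receptors also held DE genes. *Piezo2*, a stretch-activated cation channel, measured 75.0, 70.5 and 75.0 CPM in scramble and 8.95, 7.96 and 9.05 CPM in shSrsf3 (8.52-fold lower, log2FC -3.09 ± 0.0708 SE, edgeR adjusted p = 6.04e-12), while its relative *Piezo1* rose by 0.26 on the log2 scale (375 ± 11.2 to 451 ± 26 CPM). *Trpv2* rose 2.29-fold, and 4 further TRP family genes, *Trpm3*, *Trpm6*, *Mcoln2* and *Mcoln3*, were higher with at most 68 counts. Of 26 potassium channel genes, 8 were higher and 8 lower at the adjusted p, with a median log2FC of -0.04, and 5 of the 6 DE members were lower, among them *Kcnmb4* (2.27-fold) and *Kcnn1* (2.12-fold). The calcium channel subunit *Cacnb2* fell 2.92-fold (24.1 ± 2.69 to 8.28 ± 0.618 CPM). Enzymes and receptors of extracellular nucleotides had 6 DE genes of 13, all of them also DE after PDGF-AA: *Enpp2*, which makes lysophosphatidic acid, fell 4.94-fold, the ectonucleotidase *Entpd1* rose 4.95-fold, the receptor *P2ry14* 3.01-fold, *Enpp3* 2.35-fold and *P2rx5* 2.28-fold, and *Adora1* was lower with at most 59 counts. The bradykinin receptor *Bdkrb2* rose 5.74-fold, from 1.43 ± 0.406 to 8.44 ± 0.468 CPM.

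The splicing, trafficking and PI3K genes that surround Srsf3 and PDGFRα in the study's question were counted in the same way. Of all genes tested, 5.75% were DE. None of 13 SR protein genes was DE, 3 were higher and 4 lower at the adjusted p, *Srsf3* among the lower. *Srsf6* and *Srsf7* rose by 0.15 and 0.17 on the log2 scale, *Srsf1* fell by 0.13, and *Srsf2* (0.03), *Srsf5* (-0.15) and *Srsf10* (-0.04) did not pass the test. Of 51 hnRNPs and other splicing regulators, 23 were lower and 4 higher, with *Nova2*, at no more than 54 counts, DE. *Mbnl1* fell by 0.33 (499 ± 16.1 to 397 ± 13.2 CPM), *Rbfox2* by 0.20 and *Ptbp1* by 0.12. None of 41 early endosome and receptor trafficking genes was DE, against 5.75% of all genes. At the adjusted p, 12 were lower and 7 higher, near the 45.9% of all genes that passed in either direction, with *Wdr81* lower by 0.37, *Becn1* lower by 0.12, *Rab5a* lower by 0.13 and *Eea1* higher by 0.19. Of 22 PI3K pathway enzymes, the regulatory subunit *Pik3r5* rose 2.21-fold (2.56 ± 0.0525 to 5.67 ± 0.164 CPM), and *Pik3r1* rose by 0.22 on the log2 scale. Of the 71 lists examined, 13 held no DE gene.

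Markers of other cell types were summed in each sample. Of 15 epithelial markers, 5 passed the filter, with a summed level of 8.44 to 9.91 CPM in scramble and 7.79 to 8.23 CPM in shSrsf3, and *Cdh1* was the DE gene among them. Of 10 endothelial markers, 6 passed, at 37.0 to 39.4 CPM against 28.0 to 29.3 CPM, with *Erg* lower (3.3 ± 0.611 to 0.441 ± 0.12 CPM) and *Cdh5* and *Kdr* higher. Blood cell markers summed to between 2.02 and 2.74 CPM over all 6 samples, with 4 of 10 at 0 in all of them. Of 10 adipocyte markers, 5 passed the filter and 3 were at 0, and the sum was 12.7 to 14.5 CPM in scramble and 23.6 to 24.1 CPM in shSrsf3. *Plin4*, the DE gene, accounts for most of that rise (2.86 to 12.9 CPM), and the list's median log2FC was -0.02. Of 12 neuron and glia markers, 5 passed and 4 were at 0, at 29.2 to 31.1 CPM against 21 to 21.4 CPM. Of 10 skeletal muscle markers, 2 passed and 3 were at 0, at 24.2 to 25.4 CPM against 29.8 to 31.4 CPM. Of 5 pericyte markers, 3 were higher and 2 lower, and their sum was 192 to 225 CPM in scramble and 282 to 341 CPM in shSrsf3, with *Cspg4* 2.17-fold higher (log2FC just under 1 without the 3 libraries of lower mapping rate) and *Rgs5* lower by 0.81 on the log2 scale. In bulk RNA, fewer cells of a type and less RNA per cell cannot be told apart, and the part of other cells in the results above was not tested.

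After PDGF-AA, 815 genes were DE between the lines (5.42%), and 584 genes were DE in both conditions, 67.6% of the unstimulated list and 71.7% of the ligand list. Of the 864 unstimulated DE genes, 840 had the same sign of log2FC with ligand. *Igfbp2* gave -3.29 with ligand and -3.31 without, *Lgr5* -5.11 and -5.27, *Col4a6* 3.77 and 4.00, *Itga8* 1.84 and 1.72, and *Piezo2* -3.31 and -3.09. The early genes differed more between conditions, with log2FC values of 0.93 with ligand and 1.61 without for *Nr4a1*, 0.56 and 1.28 for *Arc*, and 0.79 and 1.15 for *Dusp5*. The difference between conditions did not pass the test for any of these 3 genes (edgeR adjusted p of the interaction term = 0.733, 0.396 and 0.3). Over all genes, 2 had an adjusted p of 0.05 or less for that term (0.0133%), neither of them among the 864. At an unadjusted p under 0.05 there were 833 (5.54%), 80 of them DE without ligand (9.26% of the DE genes). The DE genes were chosen on the unstimulated difference, which is part of that term, so these shares cannot be compared. DESeq2 called 26 genes for the same term.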

How the data were processed

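RNA was collected from 3 cultures of each line and treatment and sequenced as stranded, poly(A)-selected paired-end libraries. The authors quantified reads against GENCODE M26 transcripts (GRCm39) with Salmon 1.4.0 and summed them per gene with tximport, and the deposited table holds the resulting expected counts, of which 16.3% were not whole. The scaling used in tximport is not given in the sources used here. Reads that fit several genes are divided among them by estimation, so the share of 31-base words that a gene has in common with others was counted in GENCODE M39 transcripts on GRCm39, the source of the positions (98.2% of tested symbols matched).

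Expected counts were rounded, filtered with filterByExpr (minimum count 10), scaled by TMM and fitted with edgeR 4.0.16 (R 4.3.3) in 1 quasi-likelihood model of 12 samples with a mean per group (8 residual degrees of freedom). No 2 libraries agreed within sampling noise. The step was tested on simulated data. Alternatives were RLE scaling, DESeq2 1.42.0, other filters, the 6 unstimulated samples alone, a replicate block, a test against a 2-fold change, thinning to equal depth, leaving out each sample, and leaving out the 3 libraries of lower mapping rate.

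Members and the 71 gene lists were chosen with earlier results of these data known, and 2 further lists, imprinted genes and the *Serpina3* cluster, after values were seen. Named genes were *Srsf3*; the 10 largest increases and decreases in log2FC among DE genes with a mean of at least 50 counts and no overlap; the 10 largest rises and falls in mean CPM among DE genes; up to 6 DE members per list by the first criterion plus up to 3 well-known members under 2-fold; genes with an interaction; and DE genes at 0 in every sample of a group with at least 50 counts in the other. Members named to complete a count, and other genes named for context, were chosen after their values were seen.

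Some members of the lists are not reported here by name.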

Additional observations from a re-analysis of the deposited data

Results flagged for a closer look

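For 2 genes the difference between the lines itself differed with ligand, by the interaction term of the edgeR model over all 12 samples. *Ch25h*, which makes 25-hydroxycholesterol, measured 16.9, 17.7 and 16.5 CPM in scramble and 21.9, 23.1 and 24.6 CPM in shSrsf3 without PDGF-AA (log2FC 0.44), and 28.7, 28.7 and 29.6 CPM against 22.1, 22.5 and 20.1 CPM with it (log2FC -0.42). All samples of shSrsf3 thus lay above scramble without ligand and below it with ligand, and the log2FC changed by -0.87 ± 0.0742 SE (edgeR adjusted p = 0.000327). The pseudogene *Gm6741* was at 1.43, 1.36 and 1.24 CPM against 1.58, 1.32 and 1.53 CPM without ligand, and at 0 CPM in all 3 scramble samples against 0.962, 1.42 and 0.386 CPM with it. The fitted interaction of *Gm6741* was 8.41 (edgeR adjusted p = 0.0187), a value that depends on the prior count, and 100% of its 31-base words occur in other genes.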

How the results depend on the processing

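The 864 DE genes (449 higher, 415 lower) became 863 under RLE scaling, 827 with DESeq2, 1078 without a low-count filter, 802 from the 6 unstimulated samples, 761 without the 3 libraries of lower mapping rate (591 shared), 750 after thinning (672 shared) and 786 to 971 leaving out 1 sample. With a mean count of at least 50, 428 genes were DE (217 higher, 211 lower), and a test against a 2-fold change called 225 (108 higher, 117 lower), each by the construction of the setting. The share of DE genes that were higher ranged from 48% to 54.6%. The log2FC of *Srsf3* was -0.36 to -0.31 leaving out 1 sample.

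Interaction genes numbered 2, against 26 with DESeq2, 218 without a low-count filter, 16 without the 3 libraries, 1 after thinning and 1 to 3 leaving out 1 sample, and the cause was not tested. The 6 unstimulated samples alone give no interaction. With a replicate block, 875 genes were DE and 1 had an interaction. The deviations of same-numbered unstimulated samples correlated at -0.0388 to 0.0471. Same-numbered scramble samples with and without ligand gave -0.142, 0.201 and 0.175, and differently numbered ones gave -0.343 to 0.239. Such correlations cannot show whether a number marks a shared culture or day, which was not tested.

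Of 2144 values of named genes under the alternatives, 2011 kept direction and call, 132 lost the call and 1 turned direction, *Wdr89* without the 3 libraries (0.09). *Gm10052* has no difference there (0.0), since all the samples compared are at 0. Without the 3 libraries, *Col28a1*, *Cspg4*, *Gfra2*, *Gstt1*, *H2bc4*, *Kcnmb4* and *P2rx5* were, among others, under the 2-fold minimum. Depth limits the genes with few counts, and 441 of the 864 had a mean under 50.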

Other observations

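Imprinted genes, listed after their values were seen, were lower in 12 and higher in 2 of 25 tested, with 7 DE, all lower. *Mest*, an imprinted gene of embryonic mesoderm, measured 26.6, 26.8 and 26.3 CPM in scramble and 12.4, 12 and 12.3 CPM in shSrsf3 (2.17-fold lower). *Dlk1*, an inhibitor of fat cell differentiation, fell 2.73-fold (17.8 ± 2.16 to 6.53 ± 0.477 CPM) and *Peg3*, a zinc finger gene, fell 2.22-fold (51.9 ± 3.69 to 23.4 ± 0.952 CPM). The list also holds *Igf2* and *Cdkn1c*, described above, together with *Zim1*, which fell 4.17-fold, and *Usp29*, with at most 12 counts. *Zim1*, *Peg3* and *Usp29* lie next to each other on chromosome 7 (chr7:6674268-6970218).

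DE genes in the same direction also stood side by side elsewhere. Runs were counted among protein-coding genes that passed the count filter, so genes that did not pass may lie between their members. The longest run was of 7 lower genes on chromosome 12 (chr12:103498521-104439632), *Ppp4r4*, *Serpina9*, *Serpina3f*, *Serpina3g*, *Serpina3m*, *Serpina3n* and *Gsc*. In the *Serpina3* family of protease inhibitors, the 5 listed genes that were tested were DE and lower, with a median log2FC of -2.88, and the unlisted pseudogene *Serpina3e-ps*, with at most 45 counts, was DE and lower too (-2.16). *Serpina3e-ps* and *Serpina3h*, which the annotation does not class as protein-coding, lie within this run. *Serpina3n*, with the most counts of them, measured 43.3, 43.3 and 45.6 CPM in scramble and 14.1, 15 and 13.2 CPM in shSrsf3, and 11.1% of its 31-base words are shared. A run of 4 lower genes held the protocadherins *Pcdhb10*, *Pcdhb11*, *Pcdhb12* and *Pcdhb13* on chromosome 18, with at most 51 counts each in any sample. Runs of 3 adjacent DE genes were *Doc2b*, *Rph3al* and *Rflnb*, all lower (chr11:75659792-75918628), *Cygb*, *Prcd* and *St6galnac2*, all higher (chr11:116535970-116572116), and *Tgm2*, *D630003M21Rik* and *Lbp*, all higher (chr2:157958322-158174800).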
